A study of Mus musculus with 6 samples.

Results

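The genes of the mitochondrial respiratory chain and its ATP synthase were examined by RNA sequencing of newborn mouse epidermis. The groups were Paxbp1 knockout and wild type, each of 3 libraries by their labels. Members were the protein-coding entries of the deposited gene table whose symbol names a subunit of complexes I to V or a gene of the mitochondrial genome, and 99 of 54532 entries qualified. Of these, 86 lie in the nuclear genome and 13 in the mitochondrial genome. Before RNA was extracted, fat and dermis were taken off and the skin was held overnight in Dispase II, an enzyme that loosens epidermis from dermis. No source used here gives the strain, the driver of the knockout, the deleted exons or the source animal of each library. The p-values therefore measure only the spread between these libraries, which may be technical.

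The respiratory chain passes electrons from NADH and succinate through complexes I to IV to oxygen, and the proton gradient built on the way drives the ATP synthase, complex V. Complex II is encoded wholly by nuclear genes, whereas the other complexes combine nuclear subunits with a few made inside the mitochondrion from its own genome. In the epidermis, basal keratinocytes carry active mitochondria that are dismantled as the cells cornify.

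Several nuclear members have tissue-restricted paralogs, whose sequences are not shown. Several mitochondrial members have near-identical copies in the nuclear genome, and sequences are shown for mt-Co2 and mt-Nd3. Windows of 50 bases along each mitochondrial transcript were looked up in every other annotated transcript (GENCODE M21, build mm10). For 5 of the 13 mitochondrial genes, over 80% of the windows also lie in an annotated pseudogene on chromosome 1. The opening 80 bases of mt-Co2 (chrM:7013-7092, plus strand, a coding exon of cytochrome c oxidase subunit 2) and of its copy Gm28661 (chr1:24615486-24615565, minus strand, an exon of an unprocessed pseudogene) are the same, and no base differs along the 681 bases that align:
mt-Co2: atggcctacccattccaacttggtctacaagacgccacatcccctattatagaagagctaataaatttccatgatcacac
Gm28661: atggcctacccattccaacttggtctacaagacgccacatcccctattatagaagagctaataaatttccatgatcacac
The gene mt-Nd3 (chrM:9459-9538, plus strand, a coding exon of a complex I subunit) and its copy Gm28438 (chr1:24613040-24613119, minus strand) differ at 1 of 345 aligned bases, T3C counted from the start of mt-Nd3, which is shown in capitals:
mt-Nd3: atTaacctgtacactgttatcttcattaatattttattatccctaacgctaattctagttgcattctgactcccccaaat
Gm28438: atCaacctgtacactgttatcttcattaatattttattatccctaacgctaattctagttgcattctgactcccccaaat

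Promoters of nuclear members were searched for motifs known from nuclear respiratory genes, on both strands, in the RefSeq window from 250 bases before to 50 bases after each start (GRCm38.p6), which held 66 of the 85 nuclear symbols. The NRF1 motif (GCGCA and GCGC with any base between them) was found for 17 of the 66 (25.8%), against 5.19% of the 27025 symbols in the promoter table. The GABPA motif CCGGAAG was found for 16 (24.2% against 9.93%), and the YY1 motif AAGATGGC for 9 (13.6% against 3.19%). The bases upstream of the start are shown for 3 members whose libraries did not overlap between groups, with NRF1 and GABPA matches in capitals. They are Sdhd, higher in the knockout (chr9:50603850-50604099, minus strand), Ndufb4, lower (chr16:37654369-37654618, minus strand), and Ndufa1, higher and with none of the 3 motifs (chrX:37191239-37191488, minus strand):
Sdhd: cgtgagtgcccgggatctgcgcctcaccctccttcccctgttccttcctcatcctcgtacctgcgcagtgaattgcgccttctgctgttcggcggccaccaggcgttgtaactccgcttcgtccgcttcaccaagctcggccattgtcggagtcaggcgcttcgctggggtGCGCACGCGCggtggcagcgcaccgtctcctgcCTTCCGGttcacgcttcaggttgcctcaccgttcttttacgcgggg
Ndufb4: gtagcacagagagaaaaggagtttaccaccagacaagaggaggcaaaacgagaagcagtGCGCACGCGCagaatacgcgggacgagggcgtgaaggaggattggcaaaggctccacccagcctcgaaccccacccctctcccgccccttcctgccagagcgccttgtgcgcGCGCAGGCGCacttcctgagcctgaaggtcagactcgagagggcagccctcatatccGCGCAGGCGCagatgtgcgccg
Ndufa1: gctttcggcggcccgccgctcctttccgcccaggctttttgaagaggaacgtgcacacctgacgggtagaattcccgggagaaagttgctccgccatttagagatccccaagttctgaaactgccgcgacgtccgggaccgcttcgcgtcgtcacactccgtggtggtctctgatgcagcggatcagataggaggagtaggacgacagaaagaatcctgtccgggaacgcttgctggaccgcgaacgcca
Of the members described below as changed, 5 higher and 7 lower ones had a promoter entry. Among these, the NRF1 motif was found in 1 higher and 2 lower, and the YY1 motif in 0 of either. The GABPA motif was found in 3 higher (Ndufb7, Sdhb and Sdhd) and 0 lower. Of 52 members with an entry that did not pass the test, 14 had the NRF1 motif, 13 the GABPA motif and 9 the YY1 motif. Whether a motif goes with a change or its direction was not tested. The genes that encode these factors did not pass the test, with log2 fold changes of 0.11 ± 0.19 (SE) for Nrf1, -0.03 ± 0.19 for Gabpa and 0.12 ± 0.20 for Yy1.

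Gene counts summed to between 16315317 and 17816327 per library. The targeted gene did not separate the groups: Paxbp1 had 2007, 1159 and 1467 counts in wild type 1 to 3 and 2370, 1127 and 1125 in knockout 1 to 3 (log2 fold change 0.10 ± 0.29, adjusted p = 0.783 by edgeR's quasi-likelihood test). A gene total does not check a deletion of part of the gene, so the groups below are the labels' own. Of 12 keratinocyte markers, 11 fell and 0 rose (0 also at an unadjusted p under 0.05, by DESeq2 and by limma-voom), and their summed level went from 86436–142468 CPM (counts scaled to a common library total) in wild type to 5435–14037 in the knockout. Of the markers of other cells, 11 of 12 for fibroblasts rose and Postn fell (summed 1321–1563 to 10364–23687 CPM). Also higher were 12 of 12 for macrophages (189–213 to 10432–19582), 9 of 9 tested for neutrophils (2.44–3.22 to 3535–8593), 5 of 5 tested for endothelium (1.49–5.62 to 224–409) and 7 of 7 for red cells (3.87–8.07 to 961–1922). Fewer cells of a type and less RNA per cell cannot be told apart in such samples, and the part of these cell types in the results below was not tested.

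Most nuclear members did not pass the test, and more of the others fell than rose. Values are log2 fold changes, knockout minus wild type, and a gene is said to rise or fall where the Benjamini-Hochberg adjusted p of edgeR's quasi-likelihood test over all 16471 genes tested was under 0.05. Of the 81 nuclear members tested, 6 rose (7.41%), 12 fell (14.8%) and 63 did neither. Over all genes tested, 28.7% rose and 25.1% fell, 53.8% in all. The median log2 fold change of the nuclear members was -0.07, beside -0.03 for all genes, and 57 of the 81 lay within 0.5 of 0, as did 5260 of the 16471. The libraries of the groups did not overlap for 7 nuclear members higher and 13 lower in the knockout, against 31.9% and 30.4% of all genes (62.3% in all).

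These counts moved with the libraries and the scaling. With the replicate number as a block, 9 nuclear members rose and 19 fell, against 30.9% and 29.1% of all genes. Without knockout 1 the counts were 12 and 8 (29.5% and 26.2% of all genes), and without knockout 2 they were 4 and 23 (26.8% and 23.6%). Without wild type 2 they were 5 and 6 (25.3% and 20.6%), and without wild type 3 they were 4 and 4 (25% and 19.6%). Under upper-quartile scaling the median over all genes was -0.22, with 4 rises and 19 falls (25.2% and 31.2%), so that falls made up 82.6% of nuclear calls in place of 66.7%. Library-size scaling, with a median of -0.18, gave 4 and 20 (25.5% and 28.6%), a share of 83.3%. DESeq2 called 6 and 12 (29.7% and 24.9%) and limma-voom 6 and 13 (28.7% and 26.6%).

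**Figure D1:**
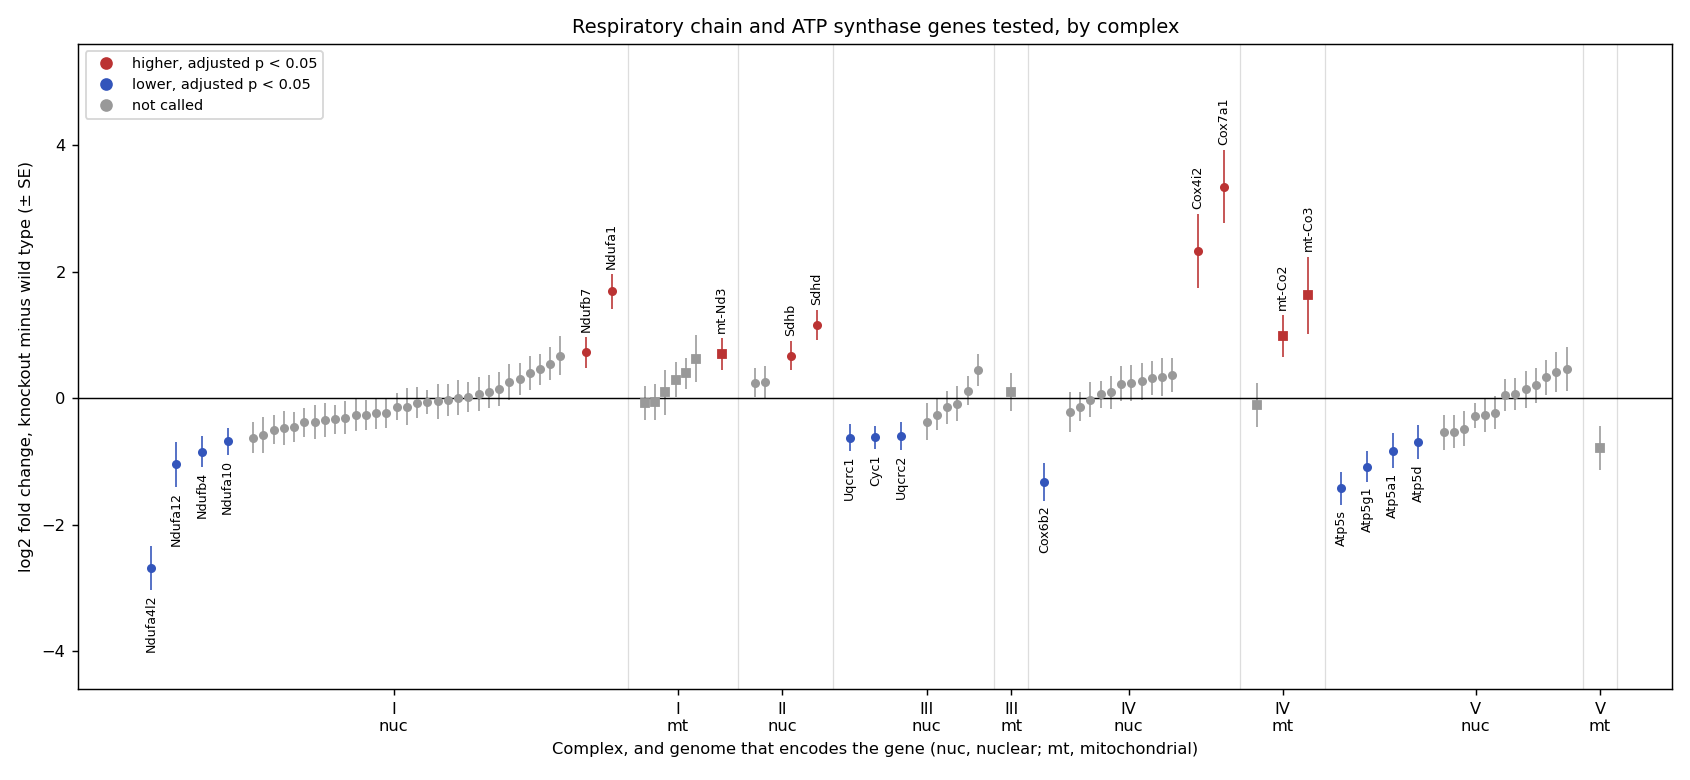
Log2 fold change (knockout minus wild type, with standard error) of each tested member on the vertical axis, ordered by size within each complex and genome of origin on the horizontal axis; red and blue points passed the test and are named, squares are mitochondrial genes. The points of complex II all lie above 0, and the named points of complexes III and V all lie below it.

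The nuclear members moved together from library to library within each group. For each library, the median log2 ratio of the nuclear members to their wild type mean was taken. It was -0.21, 0.15 and 0.03 in wild type 1 to 3 and -0.53, 0.35 and -0.21 in knockout 1 to 3. A like median over all genes, computed with a small constant added to each level, stayed between -0.05 and 0.00. The knockout libraries thus lay on both sides of the wild type range, with knockout 2 above it and knockout 1 below it. Knockout 3, at -0.214, lay just below the lowest wild type library, wild type 1, at -0.208. By complex, the order of the 3 knockout libraries was the same, with knockout 2 highest and knockout 1 lowest in all 5. Complex II had medians of 0.04, 0.77 and 0.50 in knockout 1 to 3, complex IV had -0.22, 0.69 and 0.08, and complex V had -0.70, 0.14 and -0.27. Complex I, at -0.56, 0.19 and -0.26, and complex III, at -0.54, 0.21 and -0.38, resembled complex V in where they lay.

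**Figure D2:**
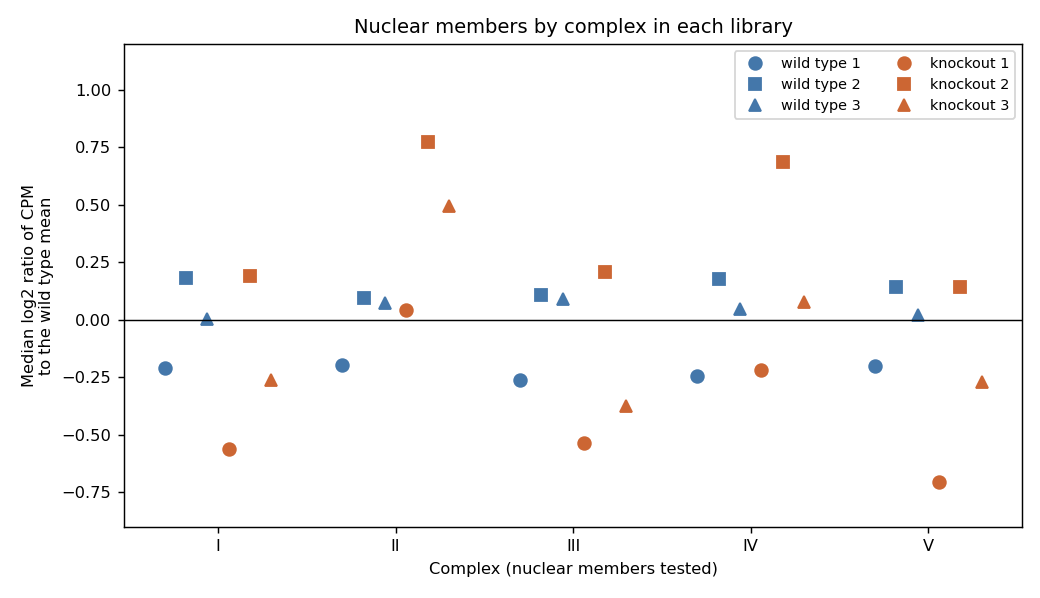
Median log2 ratio of the nuclear members of each complex to their wild type mean (vertical axis) in each of the 6 libraries. Knockout 2 is the highest knockout library and knockout 1 the lowest in every complex.

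Complex I, the NADH dehydrogenase, had 37 nuclear members tested, with a median of -0.14. Of these, 2 rose (5.41%) and 4 fell (10.8%), against 28.7% and 25.1% of all genes. Ndufa4l2, a paralog of Ndufa4 that is induced by low oxygen, had the lowest fold change of all members. It was at 392, 626 and 538 CPM in wild type 1 to 3 and at 71.2, 120 and 52.1 CPM in knockout 1 to 3. Every knockout library lay below every wild type library, and the log2 fold change was -2.68 ± 0.35 (SE, n = 3 per group, adjusted p = 7.85e-05). Ndufa4, first described in complex I and since assigned to complex IV, was at 92.7 ± 11.1 CPM in wild type and 122 ± 45.2 in the knockout (SD, n = 3) and did not pass the test (0.40 ± 0.27, adjusted p = 0.232). Per length, on the deposited FPKM (read fragments adjusted for transcript length and depth), Ndufa4l2 made up 87.4% ± 1.29 of the summed level of the pair in wild type and 45.1% ± 2.35 in the knockout (SD, n = 3). Its annotated span overlaps Shmt2 on the opposite strand by 32 bases.

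The other nuclear members of complex I that passed the test are accessory subunits. Ndufa1, a small subunit encoded on the X chromosome and needed for assembly, was at 27.5, 28.9 and 27.6 CPM in wild type 1 to 3 and at 56.5, 123 and 90.6 CPM in knockout 1 to 3. The groups did not overlap, the wild type libraries lay close together, and the log2 fold change was 1.69 ± 0.28 (adjusted p = 0.000392). Ndufb7, a subunit of the membrane arm, rose by 0.72 ± 0.24 (adjusted p = 0.0250), from 37.4 ± 3.56 to 61.8 ± 18.1 CPM. Ndufb4, also of the membrane arm, was at 41.0, 55.5 and 56.0 CPM in wild type 1 to 3 and at 21.9, 36.1 and 26.9 CPM in knockout 1 to 3, without overlap (-0.85 ± 0.24, adjusted p = 0.0126). Ndufa10 fell from 80.7 ± 12.2 to 50.3 ± 6.58 CPM (-0.68 ± 0.21, adjusted p = 0.0178). Ndufa12 was at 23.3, 40.3 and 56.0 CPM in wild type 1 to 3 and at 14.4, 15.03 and 28.6 CPM in knockout 1 to 3 (-1.04 ± 0.36, adjusted p = 0.0287), so wild type 1 lay below knockout 3. Ndufs3, Ndufs7 and Ndufv1, core subunits named here after their values were seen, had log2 fold changes of -0.45 ± 0.23, -0.38 ± 0.23 and -0.50 ± 0.23 and did not pass the test (adjusted p = 0.124, 0.182 and 0.0894), but fell without knockout 2 (0.0275, 0.0353 and 0.0177).

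These complex I calls differed in how they held when a library was left out. Ndufb4 did not pass without wild type 3 (adjusted p = 0.0540), Ndufa10 without wild type 2 or 3 (0.0833 and 0.0554), Ndufb7 without wild type 1 or 3 or knockout 2 (0.0677, 0.0901 and 0.0933), and Ndufa12 without wild type 2 or 3 or knockout 1 or 2 (0.0566 to 0.147). With the replicate block, 5 more members fell, namely Ndufb2 (-0.65, adjusted p = 0.0187), Ndufs6 (-0.64, 0.0142), Ndufa6 (-0.52, 0.0447), Ndufv1 (-0.52, 0.0199) and Ndufs3 (-0.47, 0.0273), and 2 more rose, namely Ndufa13 (0.43, 0.0443) and Ndufa2 (0.60, 0.0185). Without knockout 1, Ndufa2, Ndufa3, Ndufc2 and Ndufv3 rose (adjusted p = 0.0133 to 0.0427), and without knockout 2, Ndufb2, Ndufb5, Ndufb10, Ndufb11, Ndufa6 and Ndufs6 fell (0.00725 to 0.0355), besides the core subunits above.

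In complex II, the succinate dehydrogenase, 2 of 4 members rose (50%, against 28.7% of all genes). All 4 had a positive log2 fold change (median 0.46). Sdhd, a membrane anchor, was at 45.1, 53.9 and 55.7 CPM in wild type 1 to 3 and at 88.2, 144 and 113 CPM in knockout 1 to 3. No knockout library came near the wild type range, and the log2 fold change was 1.16 ± 0.23 (adjusted p = 0.00146). Sdhb, the iron-sulphur subunit, was at 55.1, 64.8 and 70.1 CPM in wild type 1 to 3 and at 76.9, 126 and 100 CPM in knockout 1 to 3, again without overlap (0.67 ± 0.23, adjusted p = 0.0294). The call for Sdhb was lost without wild type 1, 2 or 3 or knockout 2 or 3 (adjusted p = 0.0527 to 0.102). Sdha, the flavoprotein that binds succinate, was at 135 ± 11.5 and 160.0 ± 38.6 CPM (0.25 ± 0.23, adjusted p = 0.397), and Sdhc, the other anchor, at 77.2 ± 13.5 and 92.2 ± 24.6 CPM (0.26 ± 0.25, adjusted p = 0.409). In both of these the groups overlapped. None of the 4 fell, at an unadjusted p under 0.05, by DESeq2 or by limma-voom.

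Complex III, the cytochrome bc1 complex, had 9 nuclear members tested, with a median of -0.26. Of these, 3 fell (33.3%) and 0 rose, against 25.1% and 28.7% of all genes. The rises were 0 also at an unadjusted p under 0.05, by DESeq2 and by limma-voom. Cyc1, the haem protein cytochrome c1, was at 119, 120 and 127 CPM in wild type 1 to 3 and at 85.5, 76.1 and 76.8 CPM in knockout 1 to 3, with little spread in either group (-0.62 ± 0.19, adjusted p = 0.0168). The core proteins Uqcrc1 and Uqcrc2 fell by similar amounts, Uqcrc1 from 250.1 ± 15.5 to 162 ± 17.5 CPM (-0.62 ± 0.21, adjusted p = 0.0279) and Uqcrc2 from 93.1 ± 4.48 to 61.5 ± 13.6 CPM (-0.60 ± 0.22, adjusted p = 0.0370). The groups did not overlap for any of these 3. The members of highest FPKM, Uqcr11 (112 ± 18.4 and 88.4 ± 38.3) and Uqcrh (91.4 ± 16.1 and 87.4 ± 33.8), did not pass the test, although Uqcr11 did without knockout 2 (-0.77, adjusted p = 0.0220). Cyc1 was not called without wild type 3 (adjusted p = 0.0802), Uqcrc1 without wild type 1, 2 or 3 or knockout 3 (0.0548 to 0.102) and Uqcrc2 without wild type 1, 2 or 3 or knockout 1 or 2 (0.0695 to 0.116). With the replicate block, Uqcrq rose (0.44, adjusted p = 0.0490).

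Complex IV, cytochrome c oxidase, holds most of the paralog pairs, and the 3 nuclear members that passed the test are all tissue-restricted isoforms. Of 18 nuclear members 14 were tested, with a median of 0.24. Of the 14, 2 rose (14.3%) and 1 fell (7.14%), against 28.7% and 25.1% of all genes. Cox7a1, the isoform of heart and skeletal muscle and of brown fat, had 9, 17 and 3 counts in wild type 1 to 3 and 83, 119 and 75 in knockout 1 to 3. All knockout libraries lay well above wild type, at a low level in both (3.35 ± 0.58, adjusted p = 0.000569). Its share of the summed FPKM of Cox7a1 and Cox7a2 was 1.10% ± 0.746 in wild type and 9.78% ± 1.03 in the knockout (SD, n = 3). Cox4i2, the isoform of lung and vascular mural cells, had 4, 9 and 6 counts in wild type 1 to 3 and 27, 18 and 45 in knockout 1 to 3 (2.33 ± 0.59, adjusted p = 0.00641), and its share of the pair with Cox4i1 was 0.218% ± 0.0773 and 0.987% ± 0.544. Cox6b2, best known from testis, had 257, 186 and 197 counts in wild type 1 to 3 and 94, 88 and 53 in knockout 1 to 3 (-1.32 ± 0.30, adjusted p = 0.00326), and its share of the pair with Cox6b1 was 6.31% ± 1.66 and 2.12% ± 0.825. In all 3 the groups did not overlap.

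The widely expressed partners of these isoforms did not pass the test. Cox4i1 was at 319 ± 53.7 and 402 ± 145 CPM (0.33 ± 0.30, adjusted p = 0.374), Cox6a1 at 224 ± 46.2 and 263 ± 86.1 CPM (0.23 ± 0.28, adjusted p = 0.513), Cox6b1 at 116 ± 17.98 and 149 ± 50.3 CPM (0.36 ± 0.26, adjusted p = 0.270) and Cox7a2 at 87.8 ± 16.05 and 93.6 ± 30.8 CPM (0.09 ± 0.26, adjusted p = 0.791). Cox7b, at -0.13 ± 0.23, and Cox8a, at 0.06 ± 0.21, did not pass either. The other restricted isoforms were below the filter. Cox6a2 had 4, 15 and 6 counts in wild type and 9, 10 and 7 in the knockout. Cox8b had 21 counts in knockout 1 and 0 in the other 5 libraries. Cox7b2 and Cox8c had 0 in all 6, which allows up to 0.159 to 0.196 CPM per library (3 counts, for counting error only). With no filter, Cox8b passed the test (adjusted p = 0.00519) on the counts of knockout 1 alone.

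Markers of muscle, fat and mural cells were measured beside these isoforms, and none of lung or testis were. The counts that follow come from short lists and stand beside 28.7% of all genes tested that rose and 25.1% that fell. Of 7 skeletal muscle markers tested of 12, 5 rose and 0 fell (1 fell at an unadjusted p under 0.05, 0 by DESeq2 and 1 by limma-voom), and their summed level was 8.70–11.9 CPM in wild type and 23.2–42.2 in the knockout, with Myod1 and Tnnc2 at 0 in wild type. For cardiac and slow muscle, 2 of 4 tested of 8 rose and the summed levels overlapped (15.02–25.5 and 19.8–24.5 CPM), with Actc1, Myh7 and Myl2 at 0 in wild type. For white or brown fat, 5 of 6 tested of 11 rose (69.8–82.1 to 283–623 CPM) and 0 fell (1 at an unadjusted p under 0.05, by DESeq2 and by limma-voom, Elovl3 at -1.42, adjusted p = 0.0560). Adipoq, Plin1 and Lep were at 0 in wild type and Lep also in the knockout. Ucp1, the uncoupling protein of brown fat, had 4, 3 and 2 counts in wild type and 115, 11 and 8 in knockout 1 to 3, and knockout 1 is also the library with all Cox8b counts. For mural cells, a list added after values were seen, 3 of 5 tested of 9 rose and 1 fell (128–198 and 167–207 CPM), with Abcc9 at 0 in wild type. Of 7 melanocyte markers, 2 rose (28.6%, near the share of all genes) and 3 fell (42.9%), with summed levels of 412–595 and 209–349 CPM. The part of these cells in the isoform values was not tested.

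**Figure D3:**
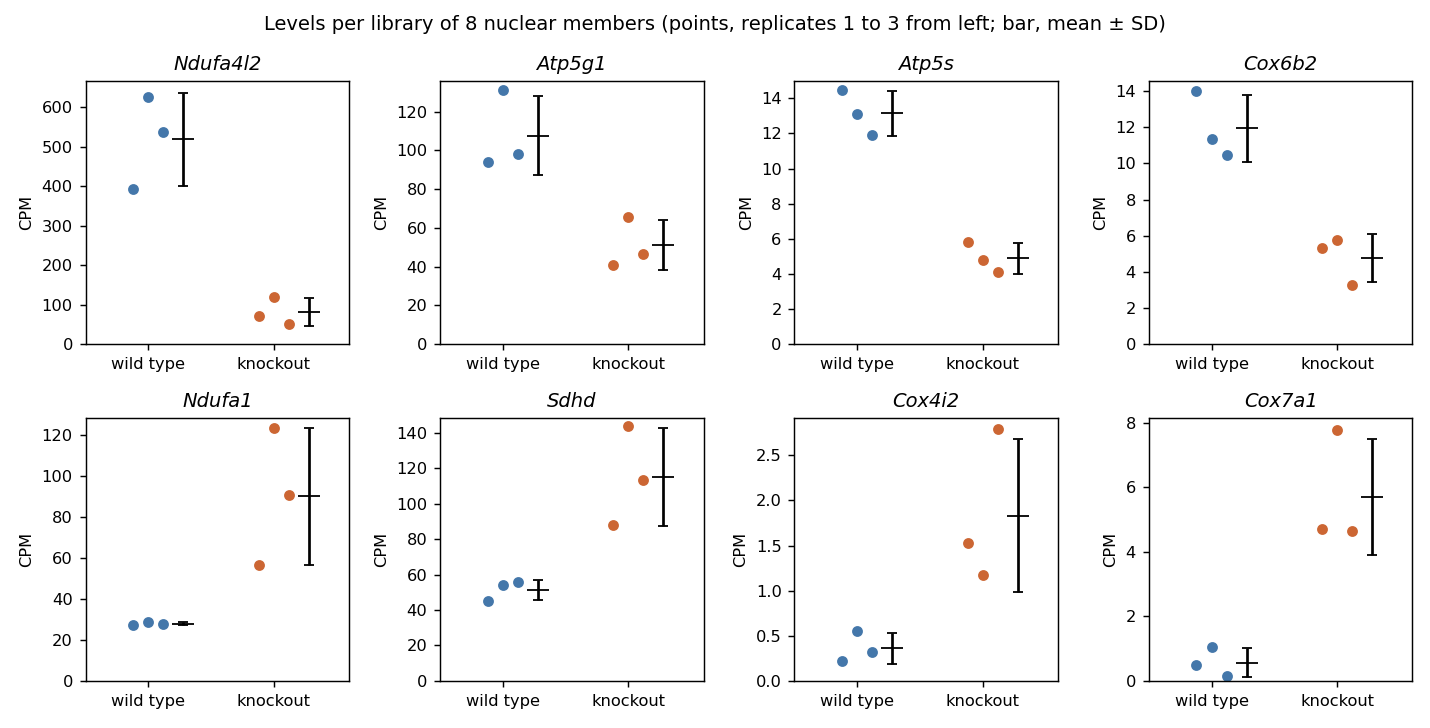
Level in CPM (vertical axes, from 0) of 8 nuclear members in wild type and knockout libraries 1 to 3, from left to right, with the mean ± SD of each group. In every panel the groups do not overlap; the upper row shows Ndufa4l2, Atp5g1, Atp5s and Cox6b2, lower in the knockout, and the lower row Ndufa1, Sdhd, Cox4i2 and Cox7a1, higher.

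Complex V, the ATP synthase, had 17 nuclear members tested, with a median of -0.27. Of these, 4 fell (23.5%) and 0 rose, against 25.1% and 28.7% of all genes. The rises were 0 also at an unadjusted p under 0.05, by DESeq2 and by limma-voom. Without knockout 1, Atp5mpl (0.80, adjusted p = 0.0159) and Atp5e (0.70, 0.0356) rose, and without knockout 2 Atp5h fell (-0.61, 0.0465). Atp5a1, the alpha subunit of the catalytic head and the member of highest FPKM in the complex, was at 703, 881 and 811 CPM in wild type 1 to 3 and at 341, 545 and 460.2 CPM in knockout 1 to 3, without overlap (-0.83 ± 0.28, adjusted p = 0.0258). Atp5b, the beta subunit beside it, was at 717, 828 and 798 CPM in wild type 1 to 3 and at 421, 681 and 574 CPM in knockout 1 to 3. These groups did not overlap either, but the test was not passed (-0.48 ± 0.27, adjusted p = 0.162) except under upper-quartile and library-size scaling (-0.68, 0.0482, and -0.65, 0.0254). Atp5d, the delta subunit of the central stalk, fell from 243 ± 52.3 to 150 ± 43.8 CPM with overlapping libraries (-0.70 ± 0.27, adjusted p = 0.0488), and 1.25% of the 50-base windows of its transcript lie in another one, mainly of Cbarp. Atp5s, a coupling factor that is not a core subunit, had 265, 214 and 224 counts in wild type 1 to 3 and 103, 73 and 66 in knockout 1 to 3, all lower (-1.42 ± 0.26, adjusted p = 0.000906).

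The proton-carrying ring of the ATP synthase is built from subunit c, which 3 genes encode with the same mature protein. Atp5g1 was at 93.7, 131 and 98.0 CPM in wild type 1 to 3 and at 41.0, 65.5 and 46.3 CPM in knockout 1 to 3, without overlap (-1.08 ± 0.24, adjusted p = 0.00318). Atp5g2 was at 127 ± 17.4 and 87.6 ± 28.3 CPM and did not pass (-0.53 ± 0.26, adjusted p = 0.107), whereas it fell with the replicate block (-0.57, 0.0164) and without knockout 2 (-0.79, 0.0234). Atp5g3 was at 169 ± 22.2 and 177 ± 48.4 CPM (0.07 ± 0.25, adjusted p = 0.839). Per length, Atp5g1 made up 12.5% ± 1.00 of the summed FPKM of the 3 genes in wild type and 7.27% ± 0.367 in the knockout, Atp5g2 43.2% ± 0.778 and 36.1% ± 2.61, and Atp5g3 44.3% ± 1.72 and 56.6% ± 2.26 (SD, n = 3). The ranges of these shares did not overlap between groups for any of the 3. Windows of Atp5g2 lie in other transcripts for 38.3%, so its value is less certain. The same holds for the Atp5o entry with counts, at 41.6%. Among nuclear members that passed the test, the highest shares were 18.3% for Ndufb4, 17.7% for Ndufa12 and 17.6% for Uqcrc2. Atp5o, of the peripheral stalk, is in the table under 2 identifiers, the second at 0 counts in all libraries, and the other, at 108 ± 23.7 and 74.8 ± 25.7 CPM (-0.54 ± 0.28, adjusted p = 0.128), fell with the replicate block (-0.57, 0.0121) and without knockout 2 (-0.82, 0.0245). Atp5a1 lost its call without wild type 2 or 3 or knockout 1 or 3 (adjusted p = 0.0551 to 0.0946) and Atp5d without the same libraries (0.102 to 0.184).

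The mitochondrial genome encodes 13 subunits, and their share of all counts did not separate the groups. It was 2.10, 1.48 and 2.04% in wild type 1 to 3 and 1.82, 1.45 and 1.81% in knockout 1 to 3. Of the 12 genes tested, 3 rose (25%) and 0 fell, against 28.7% and 25.1% of all genes, and the median was 0.20. At an unadjusted p under 0.05, 1 fell, and 0 fell by DESeq2 or by limma-voom. With the replicate block 1 rose, beside 30.9% of all genes. Under upper-quartile or library-size scaling 0 rose, beside 25.2% and 25.5% of all genes, and the median was 0.00 and 0.04. The 3 that rose, mt-Nd3, mt-Co2 and mt-Co3, are all among the 5 genes with over 80% of windows in a chromosome 1 copy. Those 5 (with mt-Nd4l and mt-Atp6) had wild type means of 10.1 to 70.6 FPKM, and the other 7 tested had 684 to 5667 FPKM. Of these 7, 0 passed the test (0 also at an unadjusted p under 0.05, by DESeq2 and by limma-voom). They include mt-Nd4 and mt-Co1, which share 62.2% and 51.1% of windows with other transcripts. The untested mt-Atp8 shares 0% and had the lowest wild type mean, 3.04 FPKM, so a low level was not limited to genes with a copy. No source used here says how the counting treated reads that align to more than 1 place.

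The 7 genes of high level are described by their CPM. For complex I, mt-Nd1 was at 1723 ± 149 and 2115 ± 104 (SD, n = 3) and did not overlap between groups, with a log2 fold change of 0.30 ± 0.28 (adjusted p = 0.403). The levels of mt-Nd2 (993 ± 95.2 and 942 ± 157), mt-Nd4 (1312 ± 120 and 1254 ± 217) and mt-Nd5 (1281 ± 354 and 1369 ± 490) overlapped, with log2 fold changes of -0.08, -0.06 and 0.10. The light-strand gene mt-Nd6 was at 430, 422 and 368 CPM in wild type 1 to 3 and at 451, 619 and 529 CPM in knockout 1 to 3, without overlap and without passing the test (0.39 ± 0.25, adjusted p = 0.207). Cytochrome b, mt-Cytb, the only mitochondrial subunit of complex III, was at 2858 ± 295 and 3058 ± 211 CPM (0.10 ± 0.30), and mt-Co1, the catalytic subunit of complex IV, at 8979 ± 1376 and 8363 ± 931 CPM (-0.10 ± 0.35). Among the counts of mitochondrial protein-coding genes, mt-Co1 took 50.7% ± 1.51 in wild type and 46.9% ± 0.240 in the knockout (SD, n = 3), with wild type 2, at 49.5%, above the highest knockout library, at 47.1%.

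Among the genes with a copy on chromosome 1, mt-Co2 and mt-Co3 were uneven between the libraries of a group. The complex IV subunit mt-Co2 had 750, 645 and 1283 counts in wild type 1 to 3 and 2415, 1530 and 910 in knockout 1 to 3, so wild type 3 lay above knockout 3 (0.98 ± 0.33, adjusted p = 0.0277). Its copy Gm28661 had 922, 346 and 244 counts and 728, 300 and 248 counts, and the sums of gene and copy overlapped, at 77.6 ± 15.6 and 123 ± 53.2 CPM. For mt-Co3, also of complex IV, knockout 2 alone had 2107 counts, and the other 5 libraries had 305 to 427 (1.63 ± 0.61, adjusted p = 0.0437, and 0.18, adjusted p = 0.578, without knockout 2). The copy of mt-Co3, Gm28437, had 421, 602 and 573 counts in wild type and 1320, 619 and 314 in the knockout. The complex I subunit mt-Nd3 had 305, 211 and 320 counts in wild type 1 to 3 and 330, 497 and 396 in knockout 1 to 3, with its scaled levels not overlapping (0.70 ± 0.26, adjusted p = 0.0383), and its sum with the copy did not overlap either, at 17.4 ± 2.29 and 28.1 ± 7.36 CPM.

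The remaining mitochondrial genes did not pass the test or were not tested. The complex I subunit mt-Nd4l was at 3.07 ± 0.779 and 4.74 ± 1.29 CPM (0.63 ± 0.37, adjusted p = 0.171). The ATP synthase subunit mt-Atp6 had 900, 472 and 297 counts in wild type 1 to 3 and 329, 289 and 274 in knockout 1 to 3 (-0.78 ± 0.35, adjusted p = 0.0798), and it fell with upper-quartile scaling (-0.98, 0.0370), with no filter (-0.79, 0.0122, where 17.3% of all genes rose and 14.9% fell) and without wild type 3 (-1.08, 0.0122). The mt-Atp8 gene, which overlaps the start of mt-Atp6, had 2 to 19 counts and was not tested. None of the 7 copies on chromosome 1 passed the test, and the lowest adjusted p was 0.0569, for Gm29216, the copy of mt-Co1, with 1846 counts in wild type 3 and 87 to 284 in the other 5 libraries. The calls for mt-Nd3 were lost without wild type 1, 2 or 3 or knockout 2 or 3 (adjusted p = 0.0616 to 0.144), for mt-Co2 without wild type 1 or 2 or knockout 1 or 2 (0.0549 to 0.0938) and with the block (0.0577), and for mt-Co3 without wild type 1, 2 or 3 (0.0816 to 0.110), with the block (0.187), by DESeq2 (0.0938) and by limma-voom (0.170).

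**Figure D4:**
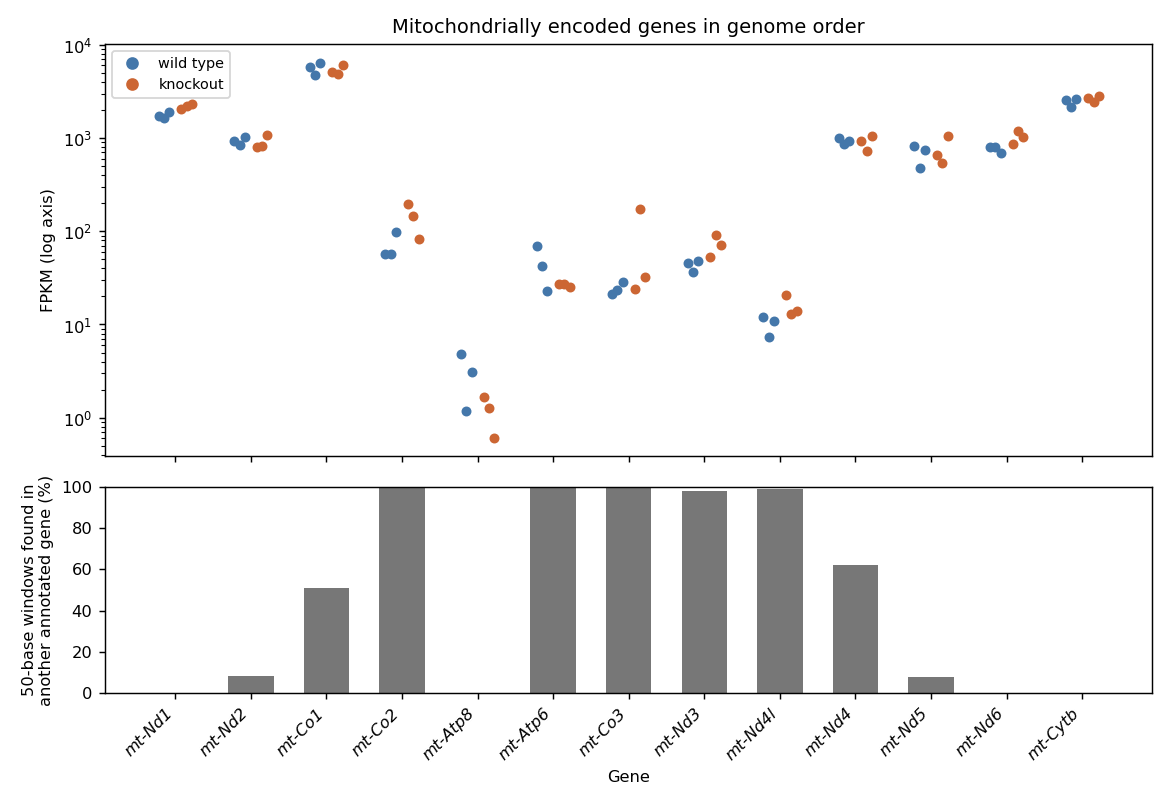
Deposited FPKM of the 13 mitochondrial protein-coding genes in each library, on a logarithmic axis, beside the percent of their 50-base windows that lie in another annotated transcript. The 5 genes with over 80% of windows shared lie at 10.1 to 70.6 FPKM in wild type, below the 684 to 5667 FPKM of the other 7 tested genes. Those 7 include mt-Nd4 and mt-Co1, with 62.2% and 51.1% of windows shared. The untested mt-Atp8, with 0% shared, lies lowest, at 3.04 FPKM in wild type.

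Genes that build and serve the chain were counted in lists of their own. Over all genes tested, 28.7% rose and 25.1% fell. Of 18 complex I assembly factors, 2 rose (11.1%) and 5 fell (27.8%). Acad9, an acyl-CoA dehydrogenase that also acts in complex I assembly, had 2644, 2898 and 2516 counts in wild type 1 to 3 and 347, 327 and 279 in knockout 1 to 3, the lowest adjusted p of that list (-2.96 ± 0.22, 1.38e-06), while Tmem126b rose (0.82 ± 0.23, 0.0102). Of 4 complex II assembly factors 1 rose, Sdhaf2, which aids attachment of flavin to Sdha (29.6 ± 2.28 to 61.4 ± 10.4 CPM, 1.05 ± 0.21, adjusted p = 0.00144), and 0 fell (0 at an unadjusted p under 0.05, by DESeq2 and by limma-voom). Of 6 for complex III, Lyrm7, a chaperone of the Rieske protein, fell (-1.40 ± 0.41, 0.0144), though not past the threshold without wild type 2 or 3 (0.0527 and 0.0620). Of 20 tested for complex IV, Coa5 rose (0.96 ± 0.21, 0.00307) and Cox19 fell (-1.16 ± 0.23, 0.00155), and Pet117 and Sco2 were at 0 in all libraries. Of 4 for complex V, Atpif1, the inhibitor of the ATP synthase, fell (-0.93 ± 0.23, 0.00623).

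Among 19 electron carriers and feeding enzymes, 4 rose (21.1%, against 28.7% of all genes) and 6 fell (31.6%, against 25.1%). They include the soluble carrier cytochrome c, Cycs, which rose from 44.2 ± 6.67 to 75.0 ± 17.9 CPM (0.76 ± 0.23, adjusted p = 0.0167) and is named here after its value was seen. Coq10b, a coenzyme Q-binding protein, rose (1.90 ± 0.28, 0.000177), and Coq2, an enzyme of coenzyme Q synthesis, fell from 72.1 ± 10.2 to 24.4 ± 2.41 CPM (-1.56 ± 0.21, 8.90e-05). Of 19 genes of mitochondrial DNA upkeep and transcription, 1 rose, Tk2 (1.05 ± 0.21, 0.00155), and 3 fell, led by the helicase gene Twnk (-1.43 ± 0.25, 0.000648). Of 19 genes of mitochondrial RNA processing and stability, 2 fell, with Fastkd1 at -1.03 ± 0.27 (0.00726). Among 14 tested regulators of respiratory genes, Pparg rose (2.06 ± 0.46, 0.00284) and Perm1 fell from 151 ± 49.0 to 24.96 ± 12.7 CPM (-2.59 ± 0.38, 0.000174).

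Most genes of the larger neighbouring groups did not pass the test, whereas 28.7% of all genes rose and 25.1% fell. Of 18 citric acid cycle genes, Dlst rose (0.99 ± 0.20, adjusted p = 0.00161), Suclg2 fell (-1.45 ± 0.20, 0.000133) and 1 more fell. Of 25 genes of import, chaperones and the inner membrane, Oma1 rose (0.66 ± 0.25, 0.0467), Lonp1 fell (-0.57 ± 0.19, 0.0278) and 1 more fell. Oma1 did not pass without wild type 1, 2 or 3 or knockout 3 (adjusted p = 0.0715 to 0.169), nor Lonp1 without wild type 1, 2 or 3 or knockout 2 (0.0524 to 0.101). Of 77 mitochondrial ribosomal proteins tested, 2 rose (Mrps25 at 0.87 ± 0.23, 0.00874, with the lower adjusted p) and 9 fell (Mrps5 at -0.75 ± 0.22, 0.0129, with the lowest), and their median was -0.07.

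Across the 19 alternatives of scaling, filter, test and left-out libraries, 8 of the 21 members that changed kept their call, namely Ndufa4l2, Ndufa1, Sdhd, Cox7a1, Cox4i2, Cox6b2, Atp5s and Atp5g1. The other 13 lost it in at least 1.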

How the data were processed

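RNA from 3 knockout and 3 wild type epidermis libraries was compared. No source used here gives the strand setting, the annotation release or the handling of multi-mapping reads. The authors deposited whole-number read counts per gene and FPKM (read fragments adjusted for length and depth) for the same 6 libraries and 54532 genes, per the file headers. HISAT2 2.0.5, featureCounts 1.5.0-p3 and build mm10 are named per the submitters' processing notes. Counts were scaled by TMM and tested with edgeR 4.0.16 (R 4.3.3), quasi-likelihood test, genotype only, after its expression filter (minimum count 10, minimum total 15), with Benjamini-Hochberg adjustment over 16471 genes and a threshold of 0.05. Standard errors were derived from the fold change and its F statistic. CPM use TMM-scaled totals, and FPKM served only to compare genes within a library and for an alternative test. Totals ran from 16315317 to 17816327 counts.

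Alternatives used DESeq2 1.42.0, limma 3.58.1 (on voom weights, and on log2(FPKM + 1) and log2(FPKM + 0.1)), other scalings and filters, a replicate block and each library left out. Deviations of libraries with the same number correlated at 0.232, 0.339 and 0.176 and those with different numbers at -0.323 to 0.0734. A block on the number was therefore run as an alternative, and the main test held genotype only. Deviations were taken from each group's mean, so these correlations are not independent and are weak evidence of pairing. Any pairing comes from the data and not from the labels. The test was tried on simulated counts. The members and gene lists were chosen with earlier results of these data known. Genes named were all mitochondrial protein-coding members, every nuclear member that passed the test, the 2 nuclear members of highest FPKM per complex, listed paralogs and the gene of lowest adjusted p in each direction per list, besides those marked as named afterwards. Sequences came from GENCODE M21 transcripts and the RefSeq promoter table. An exact permutation test of 3 against 3 libraries cannot go below p = 0.1, so none was used.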

Additional observations from a re-analysis of the deposited data

How the results depend on the processing

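The count of nuclear members that fell, 12, was 19 under upper-quartile scaling, 20 under library-size scaling and 19 with the replicate block, and 4 to 23 when 1 library was left out. The 6 nuclear rises became 4 to 12 with 1 library left out (12 without knockout 1). The 3 mitochondrial rises became 0 under upper-quartile or library-size scaling, 1 with the replicate block, 1 on log2(FPKM + 1) and 0 to 2 with 1 library left out. The mitochondrial falls, 0, became 1 under upper-quartile scaling, 1 with no filter and 0 to 1 with 1 library left out. The causes were not tested. No fold change of a member named as changed turned its direction under any alternative run. Besides losses given with 1 library left out, Ndufb7, Sdhb, mt-Nd3, mt-Co2 and mt-Co3 were not called under upper-quartile or library-size scaling, Atp5d under RLE scaling, Atp5d and mt-Co3 in both FPKM tests, mt-Co2 on log2(FPKM + 1), Uqcrc1, Uqcrc2 and mt-Co3 with no filter, and mt-Co3 with protein-coding genes only. Apart from calls described with the results, the replicate block changed no other member's call. Leaving out both libraries numbered 1 ended the calls of Atp5d, Uqcrc2 and mt-Co2. On log2(FPKM + 1), where low values shrink, the changes of Cox4i2 (1.15), Pparg (1.07), Fastkd1 (-0.58) and Lyrm7 (-0.58) were over 1.5 times smaller. With 3 libraries per group, small differences were not detectable at this spread, and low counts limit Cox4i2, Cox7a1 and mt-Atp8.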

Other observations

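Mitochondrial RNAs that encode no protein gave values outside the comparisons above. The large ribosomal RNA, mt-Rnr2, was at 645, 775 and 875 CPM in wild type 1 to 3 and at 2580, 2301 and 1454 CPM in knockout 1 to 3. The groups did not overlap, and mt-Rnr2 rose by 1.46 ± 0.32 on the log2 scale (SE, adjusted p = 0.00287 by edgeR's quasi-likelihood test). The small ribosomal RNA, mt-Rnr1, which is transcribed from the same strand just before it, was at 683 ± 64.7 and 914 ± 188 CPM (SD, n = 3), with overlapping libraries, and did not pass the test (0.42 ± 0.28, adjusted p = 0.224). Together they took 0.142 to 0.172% of all counts in wild type and 0.196 to 0.388% in the knockout. Transfer RNA genes of the mitochondrial genome took 0.00607 to 0.00882% and 0.00510 to 0.00729%.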
